A study of Homo sapiens with 16 samples.

Results

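The 6 BT474 tumours that carried the control hairpin lay in 2 expression states, which are described here gene by gene. BT474, an established luminal breast cancer line of human origin, carries an amplified ERBB2 (HER2) gene. Its cells carried a lentiviral vector that expresses, under doxycycline, a control hairpin (CTRL miR) or a hairpin against SHP2 (SHP2 miR1 or SHP2 miR2). They formed tumours in the mammary fat pad of mice that lack a working adaptive immune response. Every group, controls included, received doxycycline at 2 g per L in the drinking water for 30 days after tumours had formed. Total RNA of the dissected tumours was measured on a human gene array, on 16 arrays, of which 6 held control tumours, 7 tumours with miR1 and 3 tumours with miR2. The states were chosen by the measured IRS4 signal, in view of HOXD10, KLK2 and KLK3: control tumours 1, 3, 4 and 6 had a log2 signal of IRS4 above 7 (IRS4-high, 4 of 6), and control tumours 2 and 5 had a signal below 4 (IRS4-low, 2 of 6). The tumour nearest the upper limit was tumour 4 at 7.14, and the tumour nearest the lower limit was tumour 5 at 3.77. No control tumour lay between these values.

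Because the split was read from the profiles of these arrays, each difference between the states is a description and carries no test. Which animal bore which tumour is not labelled, so p-values given for other comparisons measure the spread between these arrays. The number of arrays limits the precision, above all the 2 IRS4-low and the 3 SHP2 miR2 arrays.

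IRS4 encodes an adaptor that is phosphorylated by the insulin and IGF1 receptors and passes their signal to PI3 kinase. Unlike its relatives IRS1 and IRS2, it has little expression in most adult tissues. HOXD10 is a homeobox transcription factor of the posterior HOXD cluster, which patterns the limbs and the hind part of the embryo. KLK2 and KLK3 (prostate-specific antigen) encode secreted serine proteases, neighbours on chromosome 19 that are known to respond to androgens in prostate and in some breast cancers. The luminal, HER2-positive breast cancers that BT474 stands for can show apocrine, androgen-responsive genes such as these.

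KLK2 and KLK3 are the pair of genes that marks the IRS4-low state, and their promoters are shown because the data move the 2 genes together and their promoters are alike. The 250 bases before each start site are given 5′ to 3′ on the plus strand from RefSeq (GRCh38.p14), KLK2 at chr19:50873189-50873438 and KLK3 at chr19:50854665-50854914. Capitals mark a stretch of 14 bases, read from the KLK3 promoter and searched on both strands.
KLK2: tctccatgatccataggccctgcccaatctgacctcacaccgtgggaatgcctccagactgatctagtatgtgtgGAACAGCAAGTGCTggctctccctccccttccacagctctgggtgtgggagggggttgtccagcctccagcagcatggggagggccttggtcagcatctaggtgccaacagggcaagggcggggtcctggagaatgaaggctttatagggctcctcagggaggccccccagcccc
KLK3: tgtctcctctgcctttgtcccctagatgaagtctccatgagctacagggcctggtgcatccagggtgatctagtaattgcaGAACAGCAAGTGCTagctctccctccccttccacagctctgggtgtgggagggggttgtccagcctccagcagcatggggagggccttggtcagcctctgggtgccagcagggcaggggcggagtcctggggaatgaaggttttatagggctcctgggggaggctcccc
The stretch began 175 bases before the start of KLK2 and 169 bases before that of KLK3. Of 35116 promoter windows of this length, 2 held it (0.0057%), which are those of KLK2 and KLK3, and it was chosen after these sequences had been viewed. The windows of the 2 genes were identical at 79.3% of 266 aligned positions, with a longest shared run of 80 bases. A match describes letters in a window and not a bound site.

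Beside the labelled groups, the arrays fell into sets. The mean log2 signal of 5 noncoding RNA genes, SNORA65, RMRP, RPPH1 and the U4 genes RNU4-1 and RNU4-2, was 8.19 to 8.39 on 7 arrays. This set A held the controls numbered 1 to 3 and the miR1 tumours numbered 1 to 4. The mean was 6.81 to 7.21 on the other 9 arrays (set B). Each set held both states, with IRS4-high tumours 1 and 3 and IRS4-low tumour 2 in set A, and IRS4-high tumours 4 and 6 and IRS4-low tumour 5 in set B. In addition, some arrays of the 2 sets resembled each other in pairs. After each set was centred, and over the 100 most variable genes, control tumour 1 correlated with tumour 4 at 0.898, tumour 2 with tumour 5 at 0.954, and tumour 3 with tumour 6 at 0.933, each the highest value for the tumours concerned. The other IRS4-high pairs across the sets were close behind, at 0.837 for 1 and 6 and 0.816 for 3 and 4. Over all genes tumour 1 correlated slightly more with tumour 6 (0.493) than with tumour 4 (0.466), while 2 with 5 (0.790) and 3 with 6 (0.602) stayed highest. These correlations are across genes, which are not independent. Among the miR1 arrays the values over the 100 genes were 0.705 for 1 and 5, 0.522 for 2 and 6, and 0.354 for 3 and 7. Over all genes only the first of these was clear (0.228), with 0.0056 for 2 and 6 and 0.0725 for 3 and 7, each below another pairing. For example, NDRG1 was 8.68 and 8.48 in miR1 tumours 1 and 5 against 6.84 to 7.11 in the other 5 miR1 tumours. Whether paired arrays hold RNA of the same tumour is not given by the labels and cannot be told apart from likeness between tumours. If they do, the states compare 2 tumours with 1 and the sets do not hold different tumours, so values with pairs averaged are given beside the main counts.

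PTPN11, which encodes SHP2, was first examined as a check of the labels. Its log2 signal (transcript cluster 7958846) was 8.61, 8.25, 8.49 and 8.53 in IRS4-high tumours 1, 3, 4 and 6, and 8.23 and 8.28 in IRS4-low tumours 2 and 5. It ran from 6.59 to 7.18 (median 6.97) with miR1 and was 6.52, 6.53 and 6.34 with miR2. Every knockdown tumour lay below every control, and the 2 control states overlapped. The difference between both miRs and the controls was -1.70 (SE 0.09, limma with Benjamini-Hochberg adjustment over 18377 genes, adjusted p = 1.701e-09). BT474 identity genes were high in both states, with ERBB2 at 10.59 to 11.26 and the luminal keratin gene KRT18 at 11.02 to 11.71 over the 6 controls.

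The genes that chose or define the split differed by several log2 units. IRS4 (cluster 8174444, chromosome X) had a log2 signal of 7.46, 8.29, 7.14 and 7.54 in control tumours 1, 3, 4 and 6, and of 3.16 and 3.77 in tumours 2 and 5. It was 3.11 to 3.91 (median 3.48) in the miR1 tumours and 3.03, 2.97 and 3.15 in the miR2 tumours. The 10 knockdown tumours thus lay with the IRS4-low controls, more than 3 log2 units below the lowest IRS4-high tumour. HOXD10 (cluster 8046536, chromosome 2) was 7.49, 7.83, 7.31 and 7.78 in the IRS4-high tumours, against 4.17 and 3.43. Its signal with knockdown was 3.27 to 3.90 (median 3.58, miR1) and 3.63, 3.44 and 3.30 (miR2). The states did not overlap for either gene, and the differences of their means were 4.14 for IRS4 and 3.80 for HOXD10. In bulk tumour RNA, fewer cells that express a gene and less RNA per cell cannot be told apart.

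KLK2 and KLK3 ran the other way. KLK2 (cluster 8030768) had a log2 signal of 5.02, 4.86, 5.46 and 5.24 in tumours 1, 3, 4 and 6, and of 8.10 and 7.85 in tumours 2 and 5. KLK3 (cluster 8030753) was 4.99, 4.78, 5.07 and 5.03 against 7.21 and 6.91. The IRS4-low tumours were higher by 2.83 and 2.09 on the log2 scale, which is 7.11-fold and 4.26-fold. The knockdown tumours did not lie with the IRS4-low controls here. KLK2 was 5.13 to 6.02 (median 5.57) with miR1 and 5.99, 5.68 and 5.89 with miR2, and KLK3 was 5.13 to 5.58 (median 5.30) and 5.40, 5.07 and 5.67. All 10 knockdown tumours were below both IRS4-low controls for both genes. The 2 genes are close paralogs, and how far their probes read each other's RNA was not tested.

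**Figure D1:**
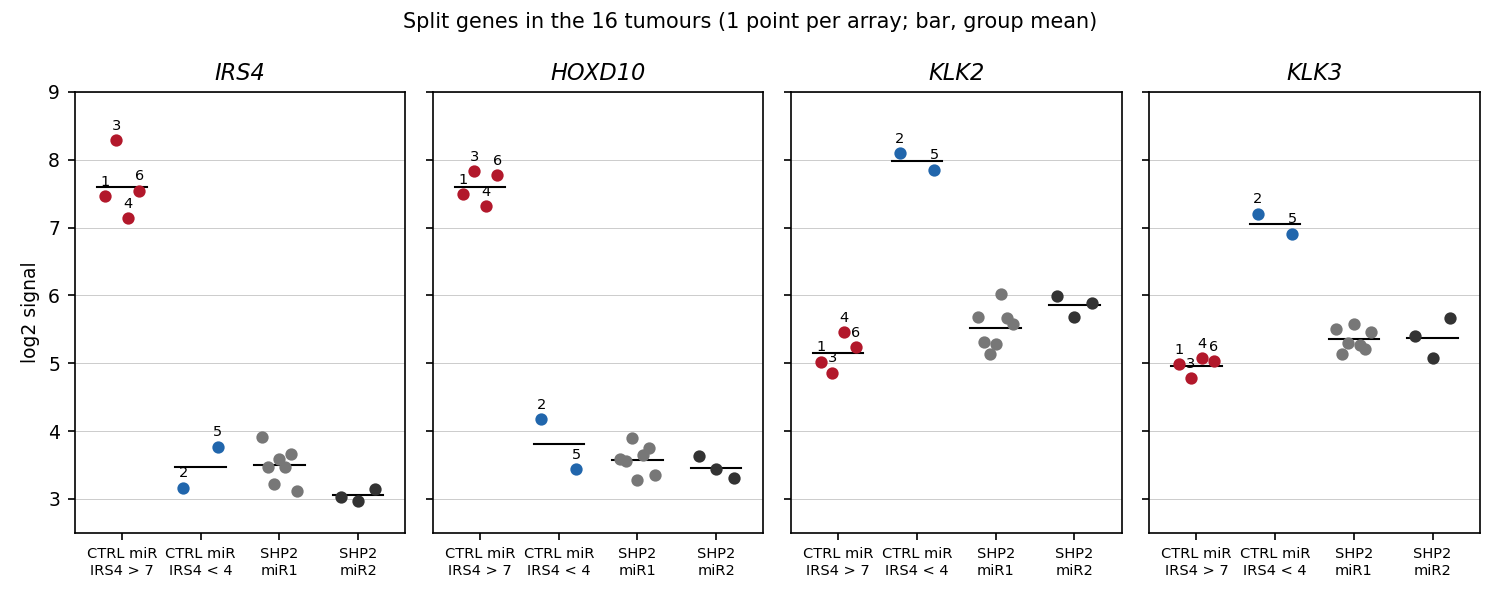
The log2 signal of IRS4, HOXD10, KLK2 and KLK3 (y axis) is plotted for each array in 4 groups of tumours: CTRL miR with IRS4 above 7 (n = 4), CTRL miR with IRS4 below 4 (n = 2), SHP2 miR1 (n = 7) and SHP2 miR2 (n = 3). Bars are group means and digits are control tumour numbers. IRS4 and HOXD10 are above 7 only in control tumours 1, 3, 4 and 6, whereas KLK2 and KLK3 are highest in control tumours 2 and 5.

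Over all 18377 genes, a gap was defined as the lowest tumour of one state minus the highest of the other, and a gene was past the gap at 1 log2 unit (2-fold). With this rule 189 genes, 1.03% of those measured, were higher in the IRS4-high tumours, and 10 genes (0.0544%) were lower. DAPK1 (gap 1.01) and SGK1 (1.03) were just inside the limit, and HFM1 (0.99) and CYP4F8 (0.91) just outside. With no minimum gap, 3497 genes (19.0%) were higher without overlap and 3042 (16.6%) lower. The median difference over all genes was -0.06. With array pairs averaged, which leaves 2 values against 1, the counts were 296 and 19. Leaving out control tumour 5 gave 20 lower genes in place of 10.

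The 15 widest gaps in favour of the IRS4-high tumours belonged to RADX, SMARCA1, IRS4, HOXD10, PYGL, SLC6A15, PLS3, SLIT2, CCDC88A, LRCH2, PRTFDC1, DYNC2H1, TMCO1, ECHDC1 and UCHL1, with differences of means from 2.64 (UCHL1) to 4.14 (IRS4). RADX, a single-strand DNA binding protein that acts at replication forks, had a signal of 7.95, 8.17, 8.10 and 8.42 in tumours 1, 3, 4 and 6, against 3.96 and 4.27. SMARCA1, the ISWI chromatin remodelling ATPase SNF2L, was 7.80, 8.01, 7.75 and 8.09 against 4.22 and 4.26. For both genes every knockdown tumour was at or near the IRS4-low level, at 3.78 to 4.20 for RADX and 4.12 to 4.52 for SMARCA1. PYGL, liver glycogen phosphorylase, was 7.81, 7.76, 7.70 and 7.84 against 4.61 and 4.39, the narrowest spread in the IRS4-high state of these genes beside UCHL1 (SD 0.06 each, n = 4). UCHL1, a neuronal deubiquitinating enzyme, was 7.51, 7.46, 7.49 and 7.38 against 4.80 and 4.84. SLIT2, a secreted axon guidance ligand of ROBO receptors, was 8.28, 8.57, 8.15 and 8.63 against 5.25 and 5.02. SLC6A15, a transporter of branched-chain amino acids and proline, differed by 3.52, and CCDC88A (girdin), an actin and G protein binding protein, by 3.30. PLS3, an actin-bundling plastin, was 9.22, 9.45, 9.46 and 9.77 against 6.21 and 6.32. With knockdown it was 6.59 to 7.16 (miR1) and 5.57, 5.79 and 5.20 (miR2), so the miR1 tumours lay above the IRS4-low controls and the miR2 tumours below them.

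Most of these genes had a low signal in the IRS4-low tumours, although probes differ in brightness at equal RNA. Of the 189 genes, 163 were below the array median in both IRS4-low tumours, and 91 were below the lower quartile of the array (4.35 to 4.60 over the controls). In the IRS4-high tumours 111 were above the array median in all 4. The 2 IRS4-low tumours had a median absolute difference of 0.157 over the 189 genes and of 0.212 over all genes, and the gap rule favours a small difference between them. Over all genes, without centring the sets, the SD of their difference was 0.322, above that of every pair of IRS4-high tumours (0.195 to 0.291). Tumours 2 and 5 lie in different array sets, whereas some IRS4-high pairs share a set. After each set was centred, the SD was 0.174 for tumours 2 and 5. This is within the range of the IRS4-high pairs across the sets (0.150 to 0.183).

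The IRS4-high tumours were not alike in how far they rose. The median excess of the 189 genes over the IRS4-low mean was 1.63 in tumour 1, 1.86 in tumour 3, 1.55 in tumour 4 and 1.88 in tumour 6. Tumour 3 or 6 was the highest of the 4 for 169 genes, whereas tumour 4 was the lowest for 113 and tumour 1 for 58. The grouping of 1 with 4 and of 3 with 6 is that of the array pairs above. The spread among the 4 was a median SD of 0.198 for the 189 genes and 0.149 for all genes. ZDBF2, an imprinted zinc finger gene, had the widest range, with 5.34 and 5.57 in tumours 1 and 4 against 6.42 and 6.54 in tumours 3 and 6. SYCP2L (4.90 and 4.60 against 5.34 and 5.68) and the matrix proteoglycan VCAN (6.25 and 6.10 against 7.01 and 6.87) showed the same order. Both IRS4-low tumours were below 5 for these 3 genes.

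Only 10 genes were past the gap in the IRS4-low tumours: KLK2, KLK3, ABCC12, MYBPC1, PIP, ABCC11, SCGB2A2, MUCL1, IGFBP5 and SGK1. PIP (prolactin-induced protein), SCGB2A2 (mammaglobin) and MUCL1 (small breast epithelial mucin) are secreted products of breast and apocrine epithelium. PIP was 5.33, 4.97, 5.12 and 4.98 in IRS4-high tumours 1, 3, 4 and 6 against 7.11 and 6.82. SCGB2A2 was 8.32, 8.22, 8.04 and 8.11 against 9.54 and 9.56. MUCL1 was 8.43, 8.44, 8.61 and 8.61 against 9.92 and 9.80. All 10 genes were above the array median in both IRS4-low tumours, and 5 (ABCC11, SCGB2A2, MUCL1, IGFBP5 and SGK1) also in all 4 IRS4-high tumours. ABCC11 and ABCC12 are neighbouring ABC transporter genes on chromosome 16, and ABCC11 is known for its part in apocrine secretion. ABCC11 was 6.83, 6.92, 6.74 and 7.01 against 8.70 and 8.37, and ABCC12 was 4.61, 4.77, 4.42 and 4.58 against 7.01 and 6.58. MYBPC1, a myosin binding protein, differed by 1.97 (log2), IGFBP5, which binds insulin-like growth factors, by 1.16, and SGK1, a kinase induced by steroid hormones, by 1.26. IGFBP5 was the tightest, at 9.38, 9.43, 9.43 and 9.38 against 10.56 and 10.55. The next 5 genes in this order, below the limit, were CYP4F8, ADCY10P1, the kallikrein gene KLK12, TCAP and the water channel gene AQP3, with gaps of 0.83 to 0.91.

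**Figure D2:**
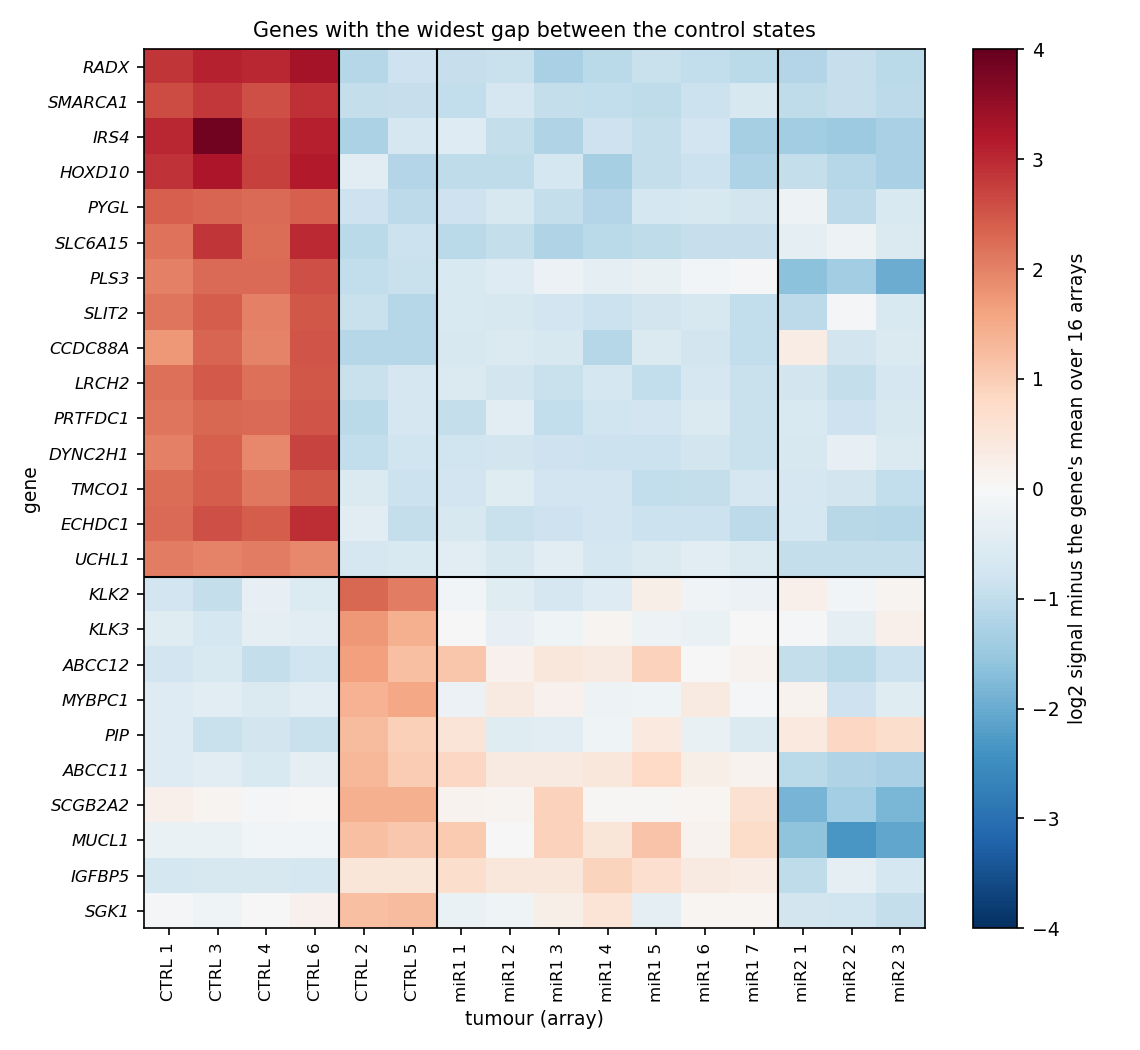
Heat map of the 15 genes with the widest gap in favour of the IRS4-high tumours and the 10 genes past the gap in the IRS4-low tumours (rows) over the 16 arrays (columns, by state and hairpin). Colour is log2 signal minus the gene's mean over all arrays. The upper block is high in control tumours 1, 3, 4 and 6 alone, and in the lower block control tumours 2 and 5 exceed the other controls while miR1 and miR2 tumours differ from each other for several genes.

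The split was next given within each array set. In set A (tumours 1 and 3 against 2), 390 genes (2.12%) were higher in the IRS4-high tumours by 1 log2 unit or more and 43 (0.234%) lower. In set B (tumours 4 and 6 against 5) the counts were 453 (2.47%) and 30 (0.163%). The sets had 289 of the higher genes in common, 74.1% of those of set A and 63.8% of those of set B. They had 19 of the lower genes in common, 44.2% and 63.3%. No gene past 1 log2 unit in one set was past it in the opposite direction in the other. The difference for IRS4 was 4.71 in set A and 3.57 in set B, for HOXD10 3.49 and 4.11, for KLK2 -3.16 and -2.50, and for KLK3 -2.32 and -1.86. All 189 and all 10 genes past the gap were past 1 log2 unit in both sets, which the gap rule itself requires. Given the pairs of arrays described above, these are within-set values and not shown to be from different tumours.

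**Figure D3:**
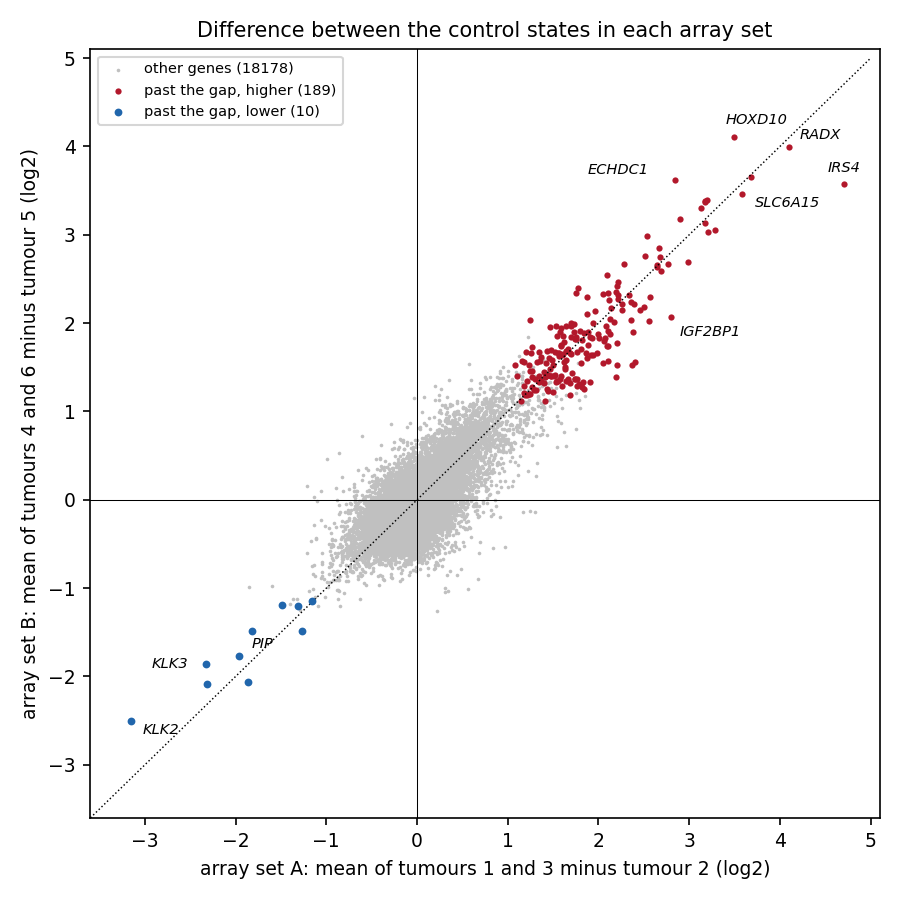
Each point is a gene. The x axis is the log2 difference between IRS4-high and IRS4-low control tumours in array set A and the y axis that in set B, with 189 genes past the gap in red, 10 in blue, and a dotted line of equality. IRS4, HOXD10 and RADX lie at 3.49 or more in both sets, and KLK2 and KLK3 at -1.86 or less in both.

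HOX genes, which encode homeobox factors along the body axis, were split by cluster. Of 27 measured HOX genes, 6 were past the gap and higher in the IRS4-high tumours (1.03% of all genes), 0 were lower (0.0544%), and the median difference was 0.21. These were 4 of 9 HOXD and 2 of 10 HOXB genes, with 0 of 7 HOXC genes and 0 of 1 HOXA gene. The HOXD count includes HOXD10, which was in view when the states were chosen. After HOXD10, HOXD13 was 7.86 to 8.07 in the IRS4-high tumours against 5.48 and 4.94. HOXD9 differed by 1.20, HOXD11 by 1.66, HOXB9 by 1.97 and HOXB6 by 1.98. The 7 HOXC genes differed by -0.14 to 0.36.

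Insulin and IGF signalling genes did not follow IRS4. Of 21 measured, IRS4 alone was past the gap upward (1.03% of all genes) and IGFBP5 alone downward (0.0544%), with a median difference of -0.14. The signal of IRS4 chose the states, so its place past the gap was fixed by the split. Without overlap, 2 were higher (19.0% of all genes) and 6 lower (16.6%). IRS1, the relative of IRS4 that BT474 expresses, was 6.51, 5.77, 5.88 and 5.38 in the IRS4-high tumours and 6.38 and 6.22 in the IRS4-low, and these overlapped. GRB14, an adaptor that restrains the insulin receptor, differed by 0.76, and IGFBP3 by -0.57.

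Genes of the LIN28 and let-7 axis, a fetal program in which LIN28 proteins block let-7 microRNA and let-7 restrains IGF2BP mRNAs, included 4 of 15 past the gap upward (1.03% of all genes) and 0 downward (0.0544%), with a median of 0.07. LIN28B had a signal of 4.06, 4.35, 3.98 and 4.90 in tumours 1, 3, 4 and 6 against 2.24 and 2.31, and 2.16 to 2.41 with knockdown. These signals are low in both states, since the lower quartile of the control arrays was 4.35 to 4.60. IGF2BP1, an RNA-binding protein of fetal tissue, was 7.43, 7.83, 6.91 and 7.45 against 4.83 and 5.11, a 5.41-fold difference. PLAGL1, an imprinted zinc finger factor, differed by 2.44 and IGF2BP2 by 1.44. IGF2BP3 differed by 1.66 but had a gap under 1 log2 unit.

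Mesenchymal and neuronal cytoskeleton genes moved in part. Of 18 mesenchymal transition genes, CDH2 (N-cadherin, 1.55) and ZEB1 (a repressor of epithelial genes, 1.53) were past the gap (1.03% of all genes). Without overlap, 10 were higher (19.0%) and 1 lower (16.6%), and the list's median was 0.29. Vimentin (VIM) was 8.39, 8.63, 8.03 and 8.51 against 7.06 and 6.94. CD44, the hyaluronan receptor, ran the other way at 5.76, 5.52, 5.75 and 5.50 against 6.76 and 6.48. Of 17 neuronal cytoskeleton genes, UCHL1 and the neurofilament gene NEFM (1.79) were past the gap, while NEFL and INA differed by 1.23 each. In all 6 were higher without overlap (19.0% of all genes) and 2 lower (16.6%), and the median was 0.06.

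Epithelial and luminal genes were lower in the IRS4-high state by small amounts. None of 21 epithelial junction and splicing genes was past the gap in either direction, and 14 were lower without overlap (median -0.35, against -0.06 over all genes and 16.6% of all genes lower without overlap). Of all genes, 1.03% were past the gap upward and 0.0544% downward. The tight junction gene CLDN3 differed by -0.56 and GRHL1, a grainyhead epithelial factor, by -0.47. Of 17 BT474 luminal markers 0 were past the gap and 10 were lower without overlap, with a median of -0.32. MUC1, the epithelial mucin, was 7.24, 7.10, 6.92 and 6.88 against 8.05 and 7.92, and KRT19 differed by -0.52. Oestrogen receptor response genes had 0 of 16 past the gap and a median of -0.23, with GREB1 at -0.69 and TFF3 at -0.58. Of 16 genes in the amplified 17q12 region around ERBB2, 0 were past the gap and 9 were lower without overlap (median -0.32). PNMT (-1.06), GSDMB and TCAP (-0.88 each) differed most.

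Of the 10 genes past the gap on the IRS4-low side, 3 were in the list of androgen-responsive and apocrine genes. These were KLK2, KLK3 and PIP, of 15 measured members, against 0.0544% of all genes, and 0 members were past the gap upward. Of the 3, only PIP was not in view when the states were chosen, so no enrichment is read from this count. In all 8 members, KLK2 and KLK3 included, were higher without overlap in the IRS4-low tumours (16.6% of all genes). In the IRS4-high tumours 2 members were higher without overlap (19.0%). ZBTB16, a zinc finger factor that responds to steroid hormones, was 5.79, 6.05, 5.64 and 5.63 against 7.29 and 6.76, and the lipoxygenase gene ALOX15B differed by -1.08. The list's median was -0.27, so most of its members differed by much less than KLK2 and KLK3.

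Proliferation genes were higher in the IRS4-high tumours, without passing the gap. Of 26 DNA replication genes 0 were past it, 25 were higher without overlap and the median was 0.52, against 19.0% of all genes higher without overlap. PRIM1, the catalytic primase subunit, was 7.98, 7.76, 7.91 and 8.08 against 7.30 and 6.46. Of 21 mitosis genes 18 were higher without overlap (median 0.47), among them the kinesin gene KIF11 (0.94) and MKI67 (0.72). Ribosome biogenesis had 13 of 21 higher without overlap (median 0.27), with NOLC1 at 0.91, and oxidative phosphorylation 7 of 17 (median 0.25). Interferon-stimulated genes (25 measured, median -0.16) and genes induced by ERK, the kinase downstream of SHP2 and RAS (18 measured, median -0.14), had 0 members past the gap. Over all genes, 1.03% were past it upward and 0.0544% downward. Of the 18 ERK genes 3 were higher without overlap (19.0% of all genes), 3 lower (16.6%) and 12 overlapped. The ERK feedback inhibitor SPRY2, which differed most, was 5.25, 5.17, 4.84 and 4.71 against 4.14 and 4.12.

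**Figure D4:**
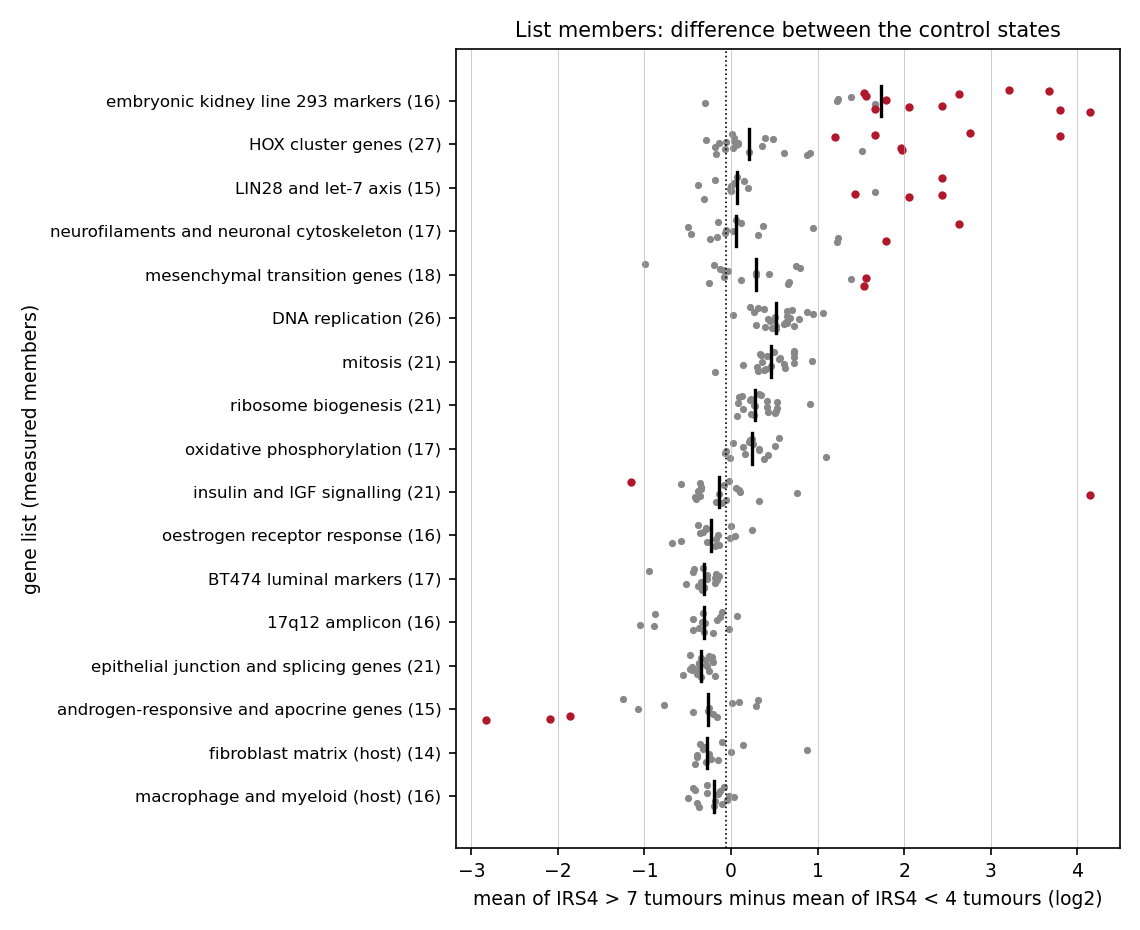
Difference of means between IRS4-high and IRS4-low control tumours (x axis, log2) for each measured member of 17 gene lists (y axis, member count in brackets). Red points are past the gap in either direction, black bars are list medians, and the dotted line is the median of all genes (-0.06). Red points lie at the right for the HEK293, HOX, LIN28, mesenchymal and neuronal lists and at the left for the androgen-responsive list. The insulin list has red points on both sides. The HEK293, HOX, insulin and androgen-responsive lists hold split genes. Some genes are in several lists, and the lists were chosen with earlier results of these data known.

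Markers of other cell types moved with the states as follows. A list of 18 genes known from the human embryonic kidney line HEK293, compiled with the split genes in view and holding IRS4 and HOXD10 themselves, had 16 measured members. Of these 11 were past the gap upward (1.03% of all genes), 15 were higher without overlap (19.0%), and the median was 1.73 (-0.06 over all genes). The list also holds SMARCA1, PLS3 and UCHL1, which are among the 15 widest gaps above. It shares HOXD10, HOXD11, LIN28B, IGF2BP1 and IGF2BP3 with the HOX and LIN28 lists. With the mesenchymal and neuronal lists it shares CDH2, ZEB1, VIM, UCHL1, NEFM, NEFL and INA. The counts of these lists are therefore not separate from each other. It was chosen with earlier results of these data known, so no enrichment is read from these counts. Its summed linear signal was 2250.5 to 2861 in the IRS4-high tumours, 496 and 517 in the IRS4-low, 524 to 619 with miR1 and 498 to 606 with miR2. PAX2, a kidney lineage factor on the list, was lower in the IRS4-high tumours (difference -0.30). The part of such cells in the split was not tested. The summed signal of the 17 luminal markers was 12483 to 16407 in the IRS4-high tumours and 16901 and 18899.7 in the IRS4-low.

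Markers of host cells, which a human array reads only in part, were slightly lower in the IRS4-high tumours. None of the 6 host lists had a member past the gap, and their medians lay between -0.12 and -0.29. Over all genes, 1.03% were past it upward and 0.0544% downward. Without overlap, 7 of 14 fibroblast matrix genes were lower and 1 higher, 4 of 12 endothelial and 1, and 4 of 16 macrophage and 0. For skeletal muscle these were 1 of 13 and 0, for adipocytes 2 of 11 and 1, and for blood cells 2 of 7 and 0. Of all genes, 16.6% were lower and 19.0% higher. Fibroblast matrix genes summed to 858 to 984 in the IRS4-high tumours against 1076 and 1126, and endothelial genes to 259 to 270.2 against 285 and 322, without overlap. Macrophage genes (319.6 to 405 against 394 and 444), skeletal muscle genes (432 to 535 against 497 and 560.3), adipocyte genes (262 to 296 against 267 and 321) and blood cell genes (139 to 166 against 159.8 and 222) overlapped. Individual members ran against their lists, such as FBN1 (0.87) and PPARG (1.21), both higher in the IRS4-high tumours. The part of host cells in the split was not tested. Immediate-early and dissection stress genes (17 measured) had a median of -0.32 (-0.06 over all genes), with 0 past the gap. Without overlap, 7 were lower (16.6% of all genes) and 2 higher (19.0%). The mean log2 signal of the 17 genes was 6.10 to 6.36 in the IRS4-high tumours and 6.48 and 6.50 in the IRS4-low, without overlap. The part of sample handling in the split was not tested.

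Genes past the gap were unevenly placed on chromosomes. RefSeq placed 18348 of the 18377 genes by symbol. The share higher in the IRS4-high tumours was 3.46% on chromosome X (24 of 694), 3.16% on chromosome 13 (10 of 316), 2.36% on chromosome 6 (23 of 976) and 2.08% on chromosome 3 (21 of 1011), against 1.03% of all genes. Chromosome 19 had 0 of 1307 and chromosome 16 had 1 of 759. Of the 10 genes lower in the IRS4-high tumours, 2 each were on chromosomes 12, 16 and 19. The X-linked genes included RADX, SMARCA1, IRS4, PLS3 and LRCH2.

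**Figure D5:**
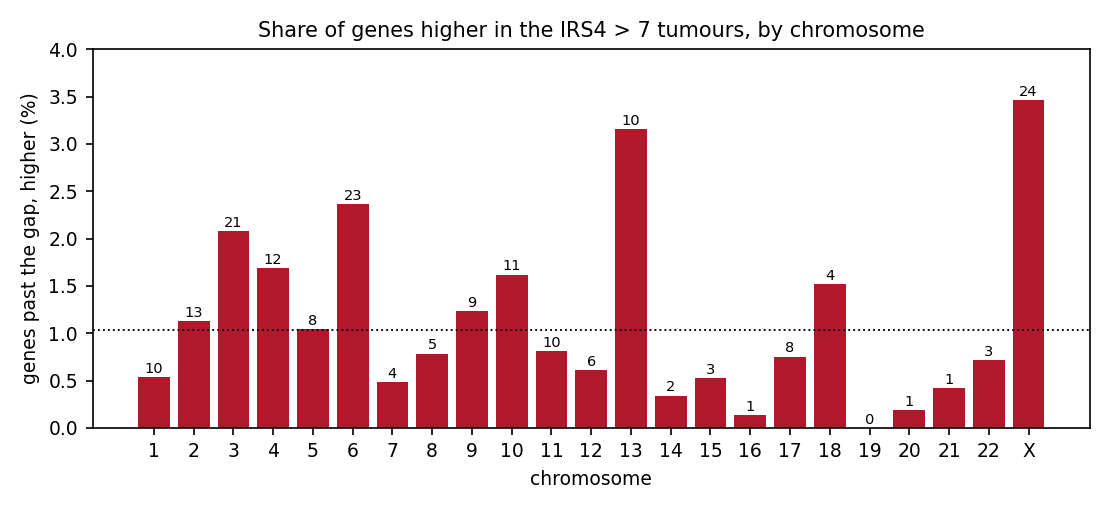
Percent of measured genes past the gap and higher in the IRS4-high control tumours (y axis) by chromosome (x axis), with the number of such genes above each bar and a dotted line at the share of all genes (1.03%). Chromosomes X and 13 have the highest bars, and chromosome 19 has none.

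The knockdown tumours, which the rule did not use, lay with the IRS4-low controls for the 189 genes. The median of the 10 knockdown tumours was nearer to the IRS4-low mean for all 189, against 68.9% of all genes. Its distance from the IRS4-low mean was a median of 0.04 over these genes, and that from the IRS4-high mean -1.67. All 10 knockdown tumours were below the lowest IRS4-high tumour for 185 genes, against 9.18% of all genes. Since the gap rule fixed the distance between the control states, nothing is read from these counts. The exceptions, singled out after their values were seen, were PGAP1, SESN3, PCDH10 and DAPK1. The stress sensor SESN3 had a signal of 6.68 to 6.78 in the IRS4-high tumours and 6.86 in miR2 tumour 2, and the death-associated kinase gene DAPK1 6.55 to 7.05 and 7.21.

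For most of the 10 genes of the IRS4-low side the knockdown tumours lay elsewhere. Their median, with both hairpins pooled, was nearer to the IRS4-high mean for 9, all but IGFBP5 (31.1% of all genes). All 10 knockdown tumours were below both IRS4-low tumours for 8 (1.37% of all genes). The gap rule placed both IRS4-low tumours above the other controls, which favours such counts, so nothing is read from them. The hairpins parted here, which the pooled median hides. IGFBP5 was 10.37 to 10.95 (median 10.53) with miR1, at the IRS4-low level, and 9.05, 9.67 and 9.37 with miR2, around the IRS4-high level. MUCL1 was 8.70 to 9.84 (median 9.45) with miR1 and 7.09, 6.38 and 6.64 with miR2, and SCGB2A2 8.18 to 9.05 (median 8.24) and 6.27, 6.76 and 6.30. For MUCL1 the median of miR1 alone was nearer to the IRS4-low tumours, and miR2 lay below both states. For MUCL1, SCGB2A2, ABCC11 and SGK1, all 3 miR2 tumours were below all 4 IRS4-high controls (23.4% of all genes).

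The difference between the hairpins uses tumours outside the split, although its spread is estimated over all 3 groups. Over all genes 14.3% were higher and 8.22% lower with miR1 than with miR2 (limma, adjusted p below 0.05). Of the 10 genes, 6 were higher with miR1 and 0 lower. MUCL1 differed by 2.64 (SE 0.32, limma adjusted p = 1.655e-05), SCGB2A2 by 1.96 (SE 0.30, 0.0001984), ABCC11 by 1.65 (SE 0.33, 0.002067) and IGFBP5 by 1.26 (SE 0.24, 0.00174). These 4 passed in all 27 alternatives. ABCC12 differed by 1.42 (SE 0.44, adjusted p = 0.02827) and SGK1 by 0.85 (SE 0.27, 0.03211), and these lost the call with the array set as a block and when any of the 3 miR2 tumours was left out. ABCC12 also lost it without miR1 tumour 1 and with an intensity trend and robust prior (limma adjusted p = 0.05581), and SGK1 without miR1 tumour 3 or 4 and with the replicate number as a block. Their limma adjusted p reached 0.1005 (ABCC12) and 0.1525 (SGK1) over all alternatives. KLK2 (-0.33, SE 0.54, adjusted p = 0.6594), KLK3, PIP and MYBPC1 did not pass. Of the 189 genes, 6 were higher, 4 lower and 179 did not pass.

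The comparison of both SHP2 miRs with the controls averages over the states. With all 6 controls, 1015 genes (5.52%) were higher and 2399 (13.1%) lower at a limma adjusted p below 0.05. IRS4 fell by 2.95 (SE 0.60, adjusted p = 0.003158) and HOXD10 by 2.82 (SE 0.54, adjusted p = 0.002334). KLK2 (-0.40, SE 0.41, adjusted p = 0.5059) and KLK3 (-0.30, SE 0.31, adjusted p = 0.5022) did not pass. These comparisons share the control arrays with the split, so they are no separate evidence for it. Controls of a single state were chosen by expression, so the values against them are descriptions. They number 2 arrays (IRS4-low) or 4 (IRS4-high). The counts of genes passing depend on these numbers and do not measure nearness to a state. With the IRS4-low tumours as the only controls, 50 genes were higher and 88 lower, and the values were -0.19 for IRS4, -0.28 for HOXD10, -2.29 for KLK2 and -1.69 for KLK3. With the IRS4-high tumours as the only controls, the counts were 2836 and 3695, and the values -4.33, -4.08, 0.55 and 0.40. KLK2 and KLK3 thus changed sign with the choice of controls, whereas PTPN11 stayed between -1.77 and -1.56 over all alternatives. Array pairs averaged gave 367 higher and 1150 lower genes. Leaving out control tumour 1, 3, 5 or 6 or miR2 tumour 3 moved the count of higher genes by more than 1.5 times, to 574, 513, 2343, 594 and 638 in that order.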

How the data were processed

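Each tumour was hybridised to an Affymetrix HuGene-1_0-st-v1 array from 100 ng of total RNA, per the labels' protocols. The deposited values are log2 signals of 28869 transcript clusters, 1.54 to 13.63 (array medians 5.21 to 5.41). R 2.10 and oligo 1.8 are named in the submitters' processing notes. How background and array differences were corrected is not given in the sources used here.

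Clusters with 1 gene symbol (19310) were used, with the highest mean for 685 genes that have several, which left 18377 genes and no filter on low values. Genes without such a cluster, among them HOXA9 and HOXA10, were not analysed here. States, gaps and counts were computed in Python 3.11.15 with pandas 2.3.3. Groups were compared by lmFit and eBayes of limma 3.58.1 (R 4.3.3; 3 groups, 13 residual degrees of freedom, Benjamini-Hochberg adjustment over all genes). Promoters are from RefSeq (GRCh38.p14).

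The members and gene lists were chosen with earlier results of these data known. Named genes are PTPN11, the split genes, the 15 widest gaps in each direction, up to 6 genes each that are past the gap with knockdown nearer to the IRS4-high state, past it with the widest range among the IRS4-high tumours, or most different between tumours 2 and 5, the 2 highest and 2 lowest genes of each array set, and the 5 members of each list with the largest absolute difference. ERBB2, PAX2, HOXD9, DAPK1, HFM1, PGAP1, SESN3 and PCDH10 were named after their values were seen.

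Alternatives were quantile normalization, median centring, a filter on low genes, the mean of a gene's clusters, other gap limits, either control state alone, array set or replicate number as a block, intensity trend with robust prior, array weights and leaving out each tumour. Averaged pairs and the contrast between the hairpins were added after seeing the data.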

Additional observations from a re-analysis of the deposited data

Results flagged for a closer look

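Of 354 groups of tumours checked (177 named genes, 6 controls and 7 miR1 tumours each), 10 held a value far from the rest of its group, and chance alone marks about 1 group in 20. Among the controls, tumour 5 stood apart for CD79A (5.07), NKG7 (6.36) and NDUFS1 (8.20), and tumour 2 for CXCL12 (6.21) and PSMB10 (5.01). These are the IRS4-low tumours, and none of the 5 genes was past the gap. Each gene was named as a list member with a large difference between the states. That choice favours an outlying value in tumour 2 or 5, so nothing is read from which tumours stood apart. In the miR1 group, tumour 5 stood apart for CD44 (6.75) and HBB (4.46), tumour 3 for FLT1 (3.28) and GINS4 (6.76), and tumour 2 for NEFM (4.10).

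Between the hairpins, 6 of the 10 genes lower in the IRS4-high controls differed by limma's test of the difference itself, by 2.64 for MUCL1, 1.96 for SCGB2A2, 1.65 for ABCC11, 1.42 for ABCC12, 1.26 for IGFBP5 and 0.85 for SGK1 (miR1 minus miR2, log2). Of the 189 genes higher in the IRS4-high controls, the 4 that were lower with miR1 than with miR2 by the same test were PGAP1 (-0.99), SESN3 (-1.44), PCDH10 (-1.01) and DAPK1 (-1.44).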

How the results depend on the processing

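The numbers 1 to 7 of the labels are shared between groups but are not said to mark a shared animal or batch. Of 12 same-numbered pairs of tumours, 5 had deviations from their group means that correlated above 0.1 over genes, and the range was -0.42 to 0.369. With the replicate block, 1418 genes were higher and 2463 lower for both miRs, and PTPN11 was -1.69, while SGK1 lost its call between the hairpins (0.76, limma adjusted p = 0.07749).

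Genes past the gap (189 higher, 10 lower) numbered 701 and 66 at a limit of 0.5, 29 and 1 at 2, and 383 and 22 by a difference of means of 1. Without the 33% of genes with the lowest mean, 95 were higher. Pairs averaged gave 296 and 19, and leaving out each control in turn 189 to 264 and 11 to 20, with 20 lower without control tumour 5. The share of set A genes past 1 log2 unit also past it in set B was 74.1% for higher genes, 80.7% after quantile normalization and 79.0% after median centring. For lower genes it was 44.2%, and 69.2% without the 33% of genes with the lowest mean. Over the alternatives run, the difference of means between the states ran from 3.84 to 4.44 for IRS4, 3.43 to 4.17 for HOXD10, -2.95 to -2.71 for KLK2 and -2.24 to -1.94 for KLK3. That filter left out IRS4 and HOXD10, which have no value there.

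For both miRs against the controls, 1015 genes were higher and 2399 lower. The counts were 50 and 88 with IRS4-low controls only (2 arrays), and 2836 and 3695 with IRS4-high controls only (4 arrays). They were 3121 and 3926 with array weights, and 367 and 1150 with pairs averaged. Leaving out each tumour in turn gave 513 to 2343 and 1573 to 3363. KLK2 and KLK3 reversed to 0.55 and 0.40 with IRS4-high controls only, 0.17 and 0.15 with array weights, and 0.0039 and 0.0096 without control tumour 2. Over all tumours left out in turn they ran from -0.64 to 0.0039 and from -0.48 to 0.0096. The cause of these changes was not tested.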
